A study of Mus musculus with 6 samples.

Results

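Semaphorins, plexins and neuropilins are 31 genes in these data, of 48401 gene rows in all: 20 semaphorins, 9 plexins and 2 neuropilins. They were chosen by symbol alone, as every row named Sema3 to Sema7 with a letter, Plxna to Plxnd with a number, or Nrp1 or Nrp2. RNA was sequenced in bulk from L4/5 dorsal root ganglia (DRG), which hold the cell bodies of the sensory neurons of the lower limb, from C57BL/6J males that were 8 weeks old. Small interfering RNA (siRNA) was delivered intrathecally, that is, into the cerebrospinal fluid. The libraries labelled siNC, taken here as the control siRNA, and those labelled siCLAP, named for the lincRNA CLAP, numbered 3 each, and both groups carried an injection. The level of CLAP was not analysed here, so the knockdown was not checked. The labels do not say whether libraries of a group came from separate mice or pools, so each p-value reflects library-to-library spread alone, and that spread may be technical.

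Semaphorins are secreted, membrane-spanning or lipid-anchored proteins that steer growing axons and shape vessels, immune cells and synapses. Plexins are their signalling receptors, and they carry a domain inside the cell that acts on small GTPases. Most class 3 semaphorins, the secreted ones, bind a neuropilin, which pairs with a plexin of the A group, while the other classes mostly bind plexins directly. In sensory ganglia the family is best known for guiding and pruning afferent axons in development, and plexin C1, the receptor of semaphorin 7A, is used as a marker of non-peptidergic and itch neurons in the adult.

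Total expected counts were 21386768 to 46317735 per library, and 26004 to 27505 genes had a count above 0. Against the tissue label, the 6 pan-neuronal genes were all present in every library (summed TPM, a level scaled to gene length and library total, of 12049 to 13191), while 6 markers of central glia and motor neurons summed to 3.95 to 6.06 TPM. Nearly all of that sum was Aqp4, at 3.55 to 5.38 TPM, with Mog at 0.16 to 0.52 TPM and Olig2 and Opalin at 0 in 5 and 4 of the 6 libraries. Libraries siNC-1 and siNC-3 stood apart in leptomeningeal genes, with summed TPM of 24.6 and 34.8 over 8 markers, against 9.16 to 11.5 in the other 4 libraries. In bulk RNA, fewer cells of a type and less RNA per cell cannot be told apart.

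The promoters of 3 members are shown: that of Plxnc1, because it was the one member that changed, that of Plxnd1, as the next most abundant plexin, and that of Sema5b, as the member with the most positive estimate. Each run holds 300 bases, from 250 before to 50 after the RefSeq transcript start in GRCm38.p6, read 5′ to 3′ along the gene. Capitals mark the GC box GGGCGG on either strand. The search also covered both strands for the TATA box, spelled TATAAA. It further covered the CCAAT box, and the core that Runx factors bind, spelled TGTGGT, and none of these occurs in the 3 windows. They lie at chr10:94944796-94945095 (minus strand), chr6:115994956-115995255 (minus strand) and chr16:35541112-35541411 (plus strand).
Plxnc1: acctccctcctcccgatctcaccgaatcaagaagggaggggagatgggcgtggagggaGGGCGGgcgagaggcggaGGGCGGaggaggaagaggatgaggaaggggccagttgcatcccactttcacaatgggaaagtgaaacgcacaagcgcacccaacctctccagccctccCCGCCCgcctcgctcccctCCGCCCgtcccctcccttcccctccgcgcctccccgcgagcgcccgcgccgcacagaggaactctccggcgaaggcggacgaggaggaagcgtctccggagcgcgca
Plxnd1: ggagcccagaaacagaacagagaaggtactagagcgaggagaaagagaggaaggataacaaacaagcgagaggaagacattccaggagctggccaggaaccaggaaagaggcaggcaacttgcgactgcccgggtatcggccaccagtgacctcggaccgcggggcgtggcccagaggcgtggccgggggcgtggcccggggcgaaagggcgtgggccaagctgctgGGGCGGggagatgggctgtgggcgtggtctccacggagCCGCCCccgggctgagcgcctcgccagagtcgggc
Sema5b: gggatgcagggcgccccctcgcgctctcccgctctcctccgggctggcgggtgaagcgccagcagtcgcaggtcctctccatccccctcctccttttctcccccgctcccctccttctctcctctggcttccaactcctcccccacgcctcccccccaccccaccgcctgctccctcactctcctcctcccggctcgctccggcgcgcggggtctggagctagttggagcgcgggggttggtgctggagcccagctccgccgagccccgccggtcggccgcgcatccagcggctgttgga

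The Plxnc1 window held 4 GC boxes and 30 CpG dinucleotides, that of Plxnd1 2 GC boxes and 23 CpG, and that of Sema5b 0 GC boxes but 27 CpG. Promoter windows were found for 26 of the 31 members, 37 windows in all because several genes have more than 1 start, and the windows of a gene can overlap. A GC box was present in 27 of these 37 windows (73.0%), against 35.7% of all 32851 promoter windows of the same length. TATAAA was in 0 of 37 (13.6% of all), CCAAT in 7 (18.9%, against 37.4%) and TGTGGT in 5 (13.5%, against 16.8%). The members' windows were rich in CpG, with a median of 15 against 7 over all windows and a median GC content of 63.7% against 52.7%. GC boxes are themselves made of G and C, so this count and the GC content are not separate observations.

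Every member but one was expressed in the ganglia. Mean levels over the 6 libraries ran from 147 TPM for Plxnc1 down to 3.95 TPM for Sema3d, a span of 37.2-fold, with 18 members at 20 TPM or more and 8 between 1 and 10 TPM. Sema3a, the classical repellent of sensory axons, was the exception: it was listed at 0.044, 0.082 and 0.11 TPM in siNC-1 to siNC-3 and at 0.058, 0.015 and 0.065 TPM in siCLAP-1 to siCLAP-3, from 1 to 10 counts a library and 32 in all. It fell below the filter of a mean of 1 TPM and was not tested, so 30 of 31 members passed the filter.

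Plxnc1 stood above all others in every library. After it came Plxnd1 (90.7 TPM), the receptor of semaphorin 3E, then the lipid-anchored Sema7a (83.4 TPM), the transmembrane Sema4f (76.4 TPM), the secreted Sema3b (73.4 TPM) and the transmembrane Sema6d (68.6 TPM). The ranges of these last 5 overlapped from each gene to the next, and Sema6d in turn lay above Plxna2 (48.4 TPM) in all 6 libraries with no overlap. Of the 30 steps between neighbours in the order, 26 had overlapping ranges. Some of these still kept their order in all 6 libraries, such as Nrp2 above Sema3g. Others did not, such as Sema4c above Sema3f (3 of 6 libraries). The order within the middle of the family is thus only partly resolved. Semaphorins summed to 537 to 618 TPM per library, plexins to 377 to 456 TPM and neuropilins to 49.5 to 62.0 TPM. Nrp1 was the higher neuropilin in 6 of 6 libraries, at 1.35 to 1.84 times the TPM of Nrp2.

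**Figure D1:**
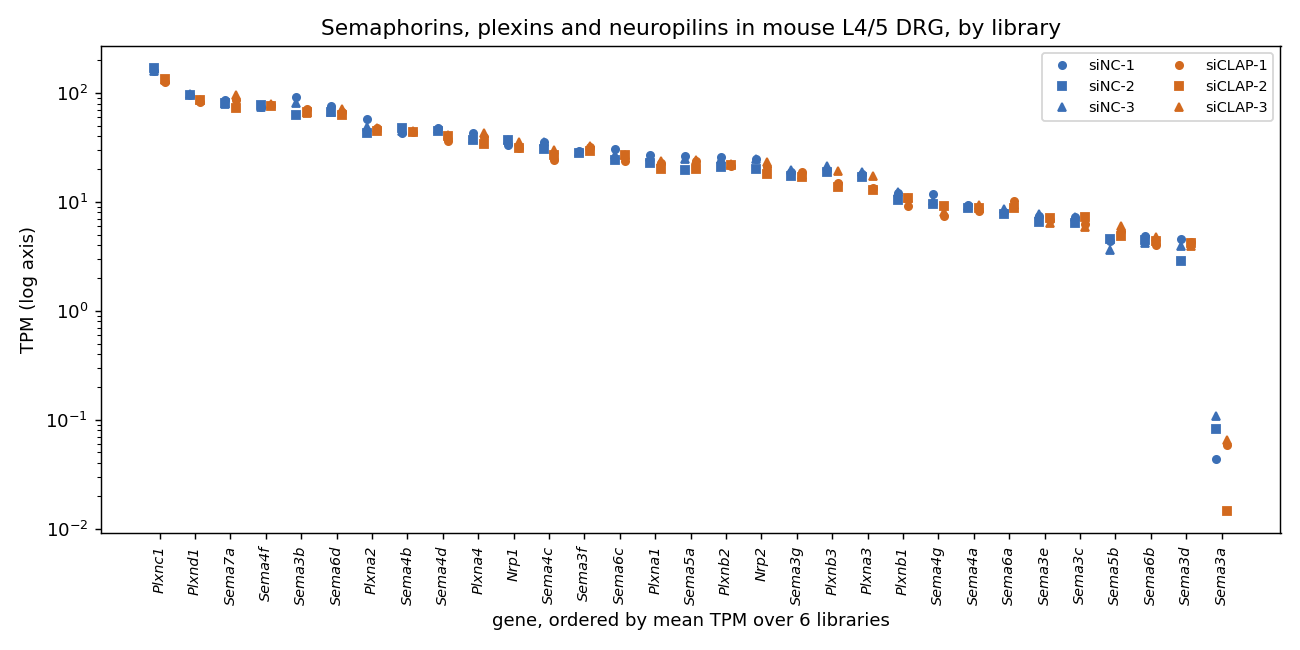
TPM (log axis) of the 31 genes in each library, ordered by the mean over the 6 libraries; blue points are siNC and orange points siCLAP, with 1 point per library and no averaging. Levels fall gradually from Plxnc1 at 147 TPM to Sema3d at 3.95 TPM, and Sema3a lies apart below 0.2 TPM.

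Between siCLAP and siNC, a comparison that asks what differs in the ganglia after siRNA named for CLAP, 1 of the 30 tested members changed. It was Plxnc1, which fell. Over all 19141 genes tested with edgeR's quasi-likelihood test, 0.293% passed (Benjamini-Hochberg adjusted p below 0.05), and 0.219% passed as lower in siCLAP. At an unadjusted p under 0.05 stood 10 members (7 lower and 3 higher, 33.3%), against 17.0% of all genes. The normalised CPM (counts scaled to library total by TMM factors) of the groups did not overlap for 7 members (5 lower and 2 higher, 23.3%), near the 21.5% of all genes.

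Estimates were negative for 23 of 30 members (76.7%), against 50.5% of all tested genes, with a median log2 fold change of −0.07 against −0.0018 over all genes. The split moved with single libraries, from 18 negative without siNC-1 to 25 without siCLAP-3. Many of these transcripts are long, and the longest genes leaned slightly down over the whole data set, as did the shortest. Deciles of exon length were taken over 16278 tested genes with a GENCODE M21 model. Their median log2 fold change was −0.06 in the shortest decile, 0.06 in the next, −0.03 in decile 9 and −0.04 in decile 10, the longest. Deciles 9 and 10 held 8 of 9 plexins, both neuropilins and 9 of 19 tested semaphorins. The median was −0.16 for all plexins, −0.13 for the neuropilins and −0.04 for all tested semaphorins. What part length had in the members' estimates was not tested. Folds were small throughout, from 1.27-fold lower for Sema4g to 1.30-fold higher for Sema5b, and for 28 of the 29 members that did not pass the 95% interval excluded a change of 1.5-fold in either direction. The exception was Sema5b, whose interval reached 0.65 on the log2 scale.

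**Figure D2:**
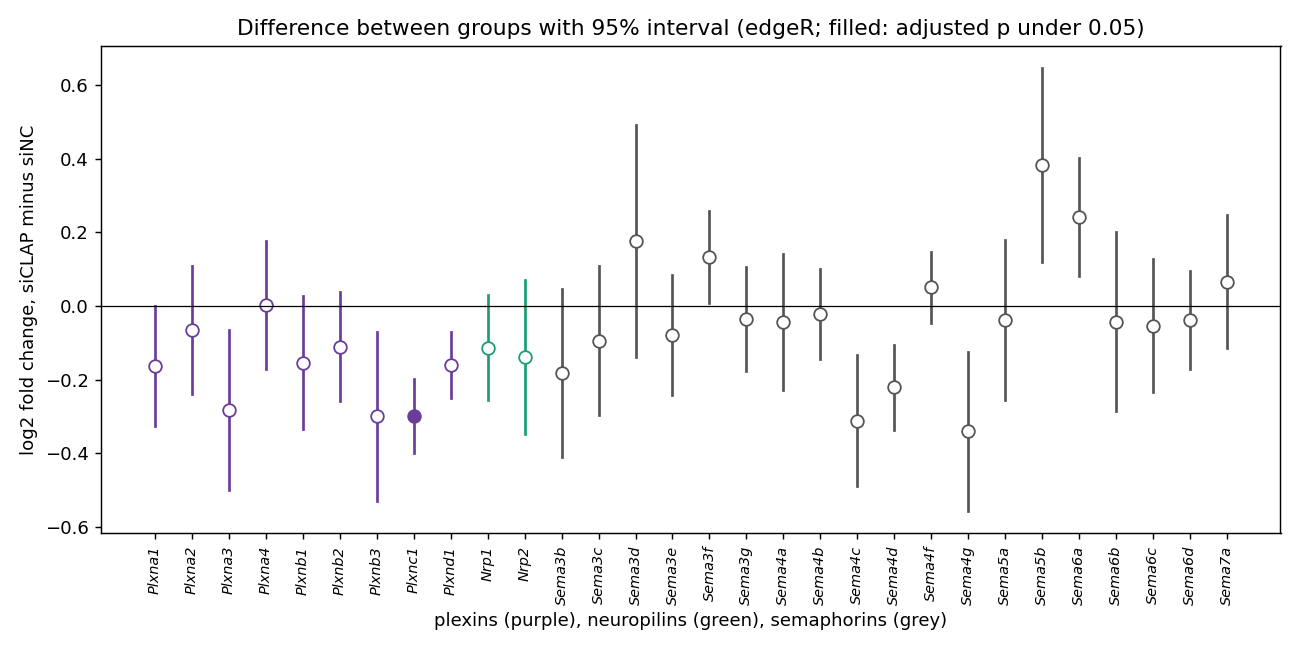
Log2 fold change (siCLAP minus siNC, on normalised counts) of the 30 tested members with 95% intervals from edgeR's model of the spread between 3 libraries per group; filled points passed at an adjusted p under 0.05. Plxnc1 at −0.30 is the single filled point, and 8 of 9 plexins lie below 0.

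Among the receptors, Plxnc1 read 159, 169 and 161 TPM in siNC-1 to siNC-3 and 127, 133 and 133 TPM in siCLAP-1 to siCLAP-3. All 3 siCLAP libraries lay below all 3 siNC libraries, and each group was tight (163 ± 5.69 against 131 ± 3.18 TPM; mean ± SD, n = 3 per group). In edgeR's fit Plxnc1 fell 1.23-fold (log2 fold change −0.30 ± 0.05 SE, 95% interval −0.40 to −0.20, adjusted p = 0.0306), and it ranked 27 of 19141 by p. The gene spans chr10:94790866-94944835 on the minus strand (GRCm38), with 34 exon blocks, and 9189 to 21201 expected counts a library lay behind its level. A same-strand transcript, Gm48718, shares 1.38% of its exonic bases. The estimate lay between −0.32 and −0.26 under all 20 alternatives, but the call did not hold in 7 of them: without siNC-3, the library highest in leptomeningeal genes (adjusted p = 0.122), without siCLAP-1 (0.195), without siCLAP-2 (0.0506), without siNC-3 and siCLAP-2 together (0.136), and in limma on log2 TPM with 3 pseudocounts (0.142 to 0.148). Calls over all genes fell too, from 56 to 4 without siNC-3, 0 without siCLAP-1 and 40 without siCLAP-2. They fell to 13 without siNC-3 and siCLAP-2 together, and to 0 in limma on log2 TPM. DESeq2, which called 611 genes in all, gave Plxnc1 an adjusted p of 8.79e-07. Without siNC-1, the other library high in leptomeningeal genes, edgeR gave 0.0408.

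Plxnc1 fell alongside markers of non-peptidergic nociceptors, which are known to express it. A separate list of itch neuron markers was not among those fixed. All 7 non-peptidergic nociceptor markers had negative estimates, with a median log2 fold change of −0.28, and 3 of them fell: the sodium channel gene Scn11a (−0.43, adjusted p = 0.0204), the receptor gene Mrgprd (−0.37, adjusted p = 0.0397) and the neurturin receptor gene Gfra2 (−0.28, adjusted p = 0.0425). Over all genes tested, 0.293% passed in either direction. The 7 markers summed to 1167 to 1266 TPM in siNC and 945 to 1007 TPM in siCLAP, and none of the 7 was at 0 in any library. Markers of myelinated mechanoreceptors and proprioceptors stood the other way, with a median of 0.24 and 5 of 7 positive, and 1 of them rose, the parvalbumin gene Pvalb (0.45, adjusted p = 0.0215). Of these 7, 6 had an unadjusted p under 0.05 in edgeR, 5 higher and 1 lower (Ntrk2, −0.13). The summed TPM of the 7 was 2132 to 2545 in siNC and 2499 to 2824 in siCLAP, with overlap and none at 0. Most of that sum was Nefh, with means of 1865 TPM in siNC and 2136 TPM in siCLAP. Peptidergic nociceptor markers had a median of 0.05, with 4 of 6 positive and 0 passing. At an unadjusted p under 0.05 stood 2 of these 6, both higher. Relative to the non-peptidergic sum, Plxnc1 did not separate the groups: its TPM was 13.6%, 13.6% and 12.7% of the marker sum in siNC-1 to siNC-3 and 13.5%, 14.0% and 13.2% in siCLAP-1 to siCLAP-3. Relative to the sum of 6 pan-neuronal genes, which was 12049 to 12334 TPM in siNC and 12829 to 13191 TPM in siCLAP, it was 1.29% to 1.38% in siNC and 0.966% to 1.03% in siCLAP. A fall of Plxnc1 and of the non-peptidergic markers had already been seen in earlier work on these libraries, so the values describe it and are not independent support. The part of non-peptidergic nociceptors in the Plxnc1 values was not tested.

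**Figure D3:**
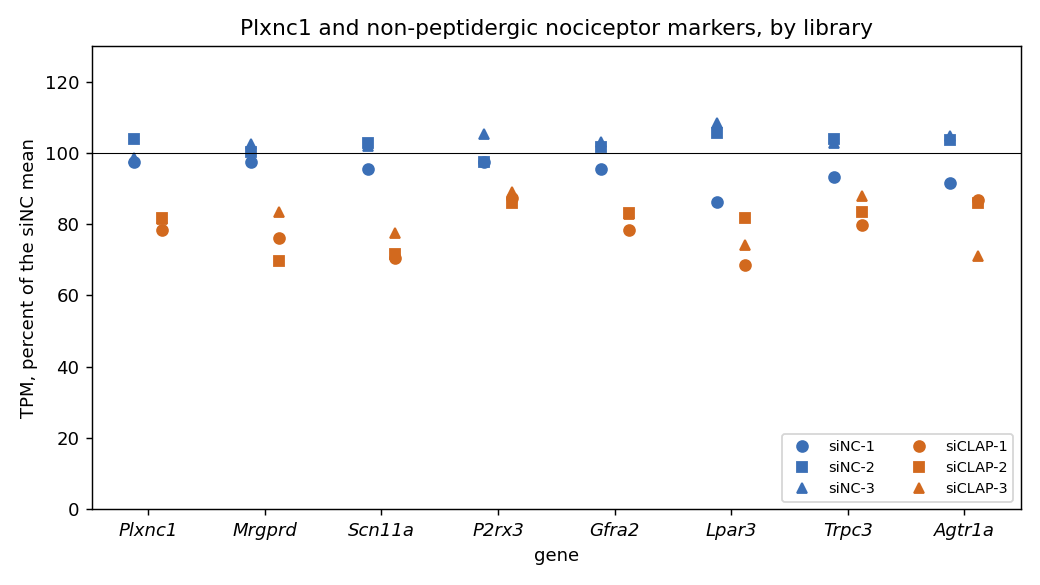
TPM of Plxnc1 and of 7 non-peptidergic nociceptor markers in each library, as a percentage of that gene's mean in the 3 siNC libraries; blue is siNC, orange siCLAP, and the line marks 100%. For all 8 genes the 3 siCLAP points lie below the 3 siNC points, Plxnc1 at 78.2% to 81.7%. Over all genes tested, 21.5% had groups of normalised CPM that did not overlap, in either direction.

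Plxnd1, which binds semaphorin 3E without a neuropilin and patterns vessels as well as axons, stood at 95.04, 96.4 and 97.3 TPM in siNC-1 to siNC-3 and 82.8, 85.8 and 87.0 TPM in siCLAP-1 to siCLAP-3. Its groups did not overlap. The log2 fold change was −0.16 ± 0.04 and it did not pass edgeR's test (adjusted p = 0.0982, 95% interval −0.25 to −0.07), while DESeq2 called it (adjusted p = 0.0222). Endothelial markers summed to 85.8 to 98.4 TPM in siNC and 88.7 to 90.9 TPM in siCLAP, with 2 of 7 positive and 0 passing edgeR's test (2 at an unadjusted p under 0.05), and all 7 were above 0 in every library. Plxnd1 was 98.9% to 111% of this sum in siNC and 91.1% to 98.2% in siCLAP. Of the pan-neuronal sum it was 0.771% to 0.807% in siNC and 0.627% to 0.678% in siCLAP. Of the non-peptidergic sum it was 7.68% to 8.15% in siNC and 8.64% to 8.99% in siCLAP. The part of any cell type in the Plxnd1 values was not tested.

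The X-linked pair Plxnb3 and Plxna3, a receptor of semaphorin 5A and a partner of neuropilin 2, followed the same pattern over libraries. Plxnb3 (chrX:73757090-73772514) was at 19.5, 18.7 and 21.5 TPM in siNC-1 to siNC-3 against 14.98, 13.7 and 19.2 TPM in siCLAP-1 to siCLAP-3. Plxna3 (chrX:74329066-74344689) was at 17.9, 17.0 and 18.9 TPM against 13.4, 12.8 and 17.5 TPM in the same order. In both genes siCLAP-1 and siCLAP-2 were low while siCLAP-3 lay within the siNC range. The log2 fold changes of −0.30 ± 0.10 and −0.28 ± 0.10 did not pass (adjusted p = 0.189 and 0.192). Without siCLAP-3 both passed, at −0.45 and −0.43 (edgeR adjusted p = 0.0253 and 0.0196). Calls over all genes then numbered 340, against 56 in the main fit. With any other single library left out, neither gene passed. siCLAP-3 was singled out by these same values, so the fit without it is not separate support.

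The remaining plexins and both neuropilins overlapped between groups. Plxna1, Plxna2 and Plxna4, which signal for class 3 and class 6 semaphorins, had log2 fold changes of −0.16, −0.06 and 0.0024. Plxna4, the most abundant of them after Plxna2, read 43.1, 36.9 and 37.6 TPM in siNC and 39.6, 34.2 and 42.7 TPM in siCLAP, and its sign turned in 11 of 20 alternatives. Plxna1 shares 10.7% of its exonic bases with Gm26811 on the opposite strand, and the kit does not mark strand, so reads of these 2 genes cannot be told apart there. Plxnb1, the receptor of semaphorin 4D, and Plxnb2, which binds several class 4 semaphorins, stood at −0.15 and −0.11 (adjusted p = 0.366 and 0.433). Nrp1, a co-receptor for semaphorin 3A and for VEGF, read 33.5, 37.1 and 37.1 TPM against 31.5, 31.3 and 35.6 TPM (log2 fold change −0.11 ± 0.07). Nrp2, which favours semaphorins 3F and 3C, read 24.8, 20.1 and 24.9 TPM against 20.9, 18.2 and 23.4 TPM (−0.14 ± 0.10).

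As a sum, plexin TPM was 456, 436 and 448 in siNC-1 to siNC-3 and 379, 377 and 404 in siCLAP-1 to siCLAP-3, without overlap. Plxnc1 alone made up 32.8% to 38.9% of it. With Plxnc1 left out, the sums overlapped (298, 266 and 287 against 252, 244 and 271 TPM). The order of receptors differed by library. In siNC-2, 5 of the 11 receptors were under 90% of their own siNC mean, and in siCLAP-3 only Plxnc1 was.

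**Figure D4:**
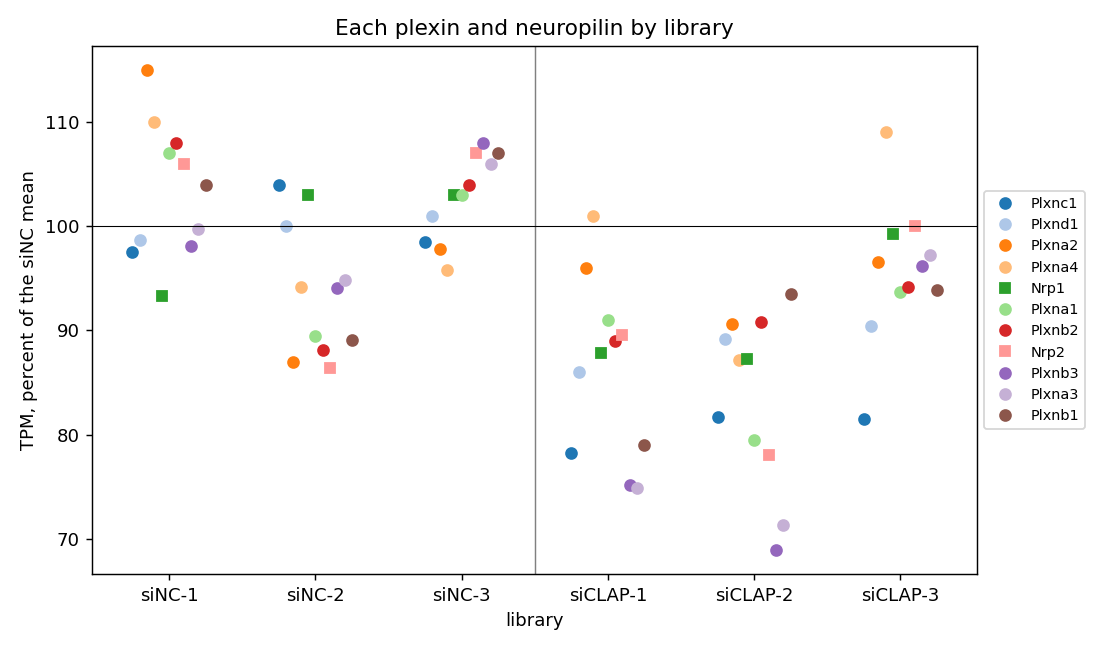
TPM of each of the 9 plexins (circles) and 2 neuropilins (squares) in each library, as a percentage of that gene's mean over the 3 siNC libraries; the vertical line separates the groups and the horizontal line marks 100%. Plxnc1 is at 78.2% to 81.7% in all siCLAP libraries, while Plxnb3 and Plxna3 are at 68.9% to 75.2% in siCLAP-1 and siCLAP-2 and at 96.2% and 97.2% in siCLAP-3.

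Among the ligands, 0 of 19 tested semaphorins passed edgeR's test and 0 passed in limma voom. At an unadjusted p under 0.05 stood 6 (31.6%, against 17.0% of all genes), of which 3 were lower (Sema4c, Sema4d and Sema4g) and 3 higher (Sema3f, Sema5b and Sema6a). DESeq2 called 2, Sema4c and Sema4d, where it called 4.38% of the 13942 genes to which it gave an adjusted p, and limma voom called 0.313% of all genes. The 3 lower ones are all of class 4, transmembrane proteins that act mainly through plexins of the B group. In class 4, 3 of 6 members had groups that did not overlap, against 21.5% of all genes, and the class as such was not tested.

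Sema4d, known from myelinating cells and lymphocytes, was at 47.4, 44.6 and 46.4 TPM in siNC-1 to siNC-3 and 36.4, 40.3 and 40.9 TPM in siCLAP-1 to siCLAP-3 (log2 fold change −0.22 ± 0.05, adjusted p = 0.0856 in edgeR and 0.0185 in DESeq2). Sema4c, a ligand of plexin B2, was at 35.5, 30.9 and 35.3 TPM against 24.0, 26.8 and 30.1 TPM (−0.31 ± 0.08, adjusted p = 0.0984 in edgeR and 0.0136 in DESeq2). It shares 7.27% of its exonic bases with D430040D24Rik on the opposite strand. Sema4g was at 11.7, 9.50 and 10.2 TPM against 7.35, 9.16 and 8.14 TPM (−0.34 ± 0.10, adjusted p = 0.128). In each of the 3 genes siCLAP-1 was the lowest library. Without siCLAP-1 the log2 fold changes of Sema4d, Sema4c and Sema4g were −0.18, −0.24 and −0.27.

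The markers of myelinating Schwann cells numbered 7, and their sum was lowest in siCLAP-3, while Sema4c, Sema4d and Sema4g were lowest in siCLAP-1. All 7 had negative estimates (median −0.16) and 1, Egr2, fell; their summed TPM was 4367, 3280 and 3822 in siNC-1 to siNC-3 and 3396, 3574 and 3266 in siCLAP-1 to siCLAP-3, with overlap between groups and no marker at 0. The part of Schwann cells in the class 4 values was not tested. The other class 4 semaphorins were nearly level, with Sema4f at 0.05 ± 0.04, Sema4b at −0.02 ± 0.06 and Sema4a at −0.04 ± 0.08. Sema4f had the smallest ratio of highest to lowest library among the tested members, from 74.6 to 79.3 TPM over the 6 libraries.

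Of the class 5 semaphorins, which carry thrombospondin repeats, Sema5b read 4.38, 4.53 and 3.62 TPM in siNC-1 to siNC-3 and 5.45, 4.81 and 6.01 TPM in siCLAP-1 to siCLAP-3. Its groups did not overlap and the log2 fold change was 0.38 ± 0.12, but it did not pass (adjusted p = 0.151), and it did not pass in any of the 19 alternatives that could test it. Sema5a, at 19.8 to 26.6 TPM over the libraries, stood at −0.04 ± 0.10. In class 6, whose members signal through plexins of the A group, Sema6a was at 8.06, 7.74 and 8.52 TPM against 10.2, 8.79 and 9.28 TPM, without overlap (0.24 ± 0.07, adjusted p = 0.140). Sema6c, Sema6b and Sema6d stood at −0.05, −0.04 and −0.04, and their groups overlapped.

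Sema7a, the lipid-anchored ligand of plexin C1, which also binds integrin beta 1, was at 85.7, 81.0 and 79.1 TPM in siNC-1 to siNC-3 and 86.5, 72.6 and 95.3 TPM in siCLAP-1 to siCLAP-3. The siCLAP libraries held both the lowest and the highest value. Its log2 fold change was 0.07 ± 0.08 (adjusted p = 0.717, 95% interval −0.12 to 0.25), so a change was not detected in the ligand at this depth and spread, and its interval lies above the estimate of −0.30 for its receptor. The difference between ligand and receptor was not tested. The ratio of Plxnc1 to Sema7a in TPM was 1.85, 2.09 and 2.03 in the siNC libraries and 1.47, 1.83 and 1.39 in the siCLAP libraries. The groups only just failed to overlap, with siNC-1 at 1.853 and siCLAP-2 at 1.835. Plxnc1, which already separated the groups, is the numerator, so the ratio is not a separate result.

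The class 3 semaphorins did not pass in edgeR, DESeq2 or limma voom (0 of 6 tested, 1 at an unadjusted p under 0.05), and their groups overlapped for all 6. Sema3f, a ligand of neuropilin 2, was at 29.6, 28.0 and 28.6 TPM in siNC against 31.9, 29.1 and 32.4 TPM in siCLAP (0.13 ± 0.06, adjusted p = 0.266). Sema3b, the most abundant of the class, was spread widely within siNC, at 92.4, 63.0 and 80.4 TPM, against 71.9, 67.1 and 65.7 TPM (−0.18 ± 0.10), and its estimate was −0.05 without siNC-1 and −0.32 without siNC-2. Sema3g, at 17.1 to 19.6 TPM, stood at −0.03.

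Sema3d, Sema3a, Sema3e and Sema3c lie in that order along chromosome 5, from Sema3d at chr5:12383385-12588948 to Sema3c at chr5:17574281-17730268, and were the 4 scarcest members of the class. Sema3e, the ligand of plexin D1, read 6.42 to 7.81 TPM (−0.08 ± 0.07), and Sema3c read 5.82 to 7.30 TPM (−0.09 ± 0.09). Sema3d read 4.53, 2.84 and 3.90 TPM in siNC and 4.29, 4.19 and 3.97 TPM in siCLAP (0.18 ± 0.14, adjusted p = 0.557). The leptomeningeal sum was lower in siCLAP (9.16 to 11.5 TPM, against 11.2 to 34.8 TPM in siNC; 7 of 7 tested markers with negative estimates, 0 passing edgeR's test and 5 at an unadjusted p under 0.05, and Slc22a6 at 0 in siCLAP-3). Sema3d and the leptomeningeal sum were both lowest within siNC in siNC-2. So were the sums of fibroblast, myelinating Schwann cell and macrophage markers (344, 3280 and 45.0 TPM in siNC-2). Between groups, Sema3d had a positive estimate while the leptomeningeal sum was lower. The part of leptomeningeal cells in the Sema3d values was not tested.

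The partners of the pathway, 47 genes for co-receptors, other neuropilin ligands and effectors inside the cell, showed no call in edgeR (0 of 46 tested). At an unadjusted p under 0.05 stood 11 (7 lower and 4 higher, 23.9%, against 17.0% of all genes), DESeq2 called 4 (4.38% of all genes with an adjusted p) and limma voom 0, and the median log2 fold change was −0.01. Met, a partner of plexin B1, was below the filter. L1cam, an adhesion molecule that pairs with neuropilin 1 in the semaphorin 3A receptor, was at 464, 444 and 453 TPM in siNC-1 to siNC-3 and 378, 353 and 411 TPM in siCLAP-1 to siCLAP-3. Its groups did not overlap (log2 fold change −0.24 ± 0.05, adjusted p = 0.0800 in edgeR and 0.00190 in DESeq2).

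Mical2, an actin-oxidising enzyme of the family that acts below plexins, stood at −0.25 ± 0.06 (adjusted p = 0.0858). Pgf, placental growth factor, which binds neuropilin 1, stood at 0.41 ± 0.10, from 8.56 to 8.96 TPM in siNC to 10.7 to 12.2 TPM in siCLAP (adjusted p = 0.0966). Pak1, a kinase switched on by Rac, stood at 0.22 ± 0.06 (adjusted p = 0.0982). Of 6 proteases that process semaphorins or neuropilins, 0 passed in edgeR, DESeq2 or limma voom and 1 had an unadjusted p under 0.05. This was Pcsk6, a proprotein convertase, at 6.62, 5.25 and 6.51 TPM in siNC against 4.79, 4.39 and 4.72 TPM in siCLAP (−0.38 ± 0.11, adjusted p = 0.122). Mmp14, Pcsk5 and Furin stood at 0.17, 0.24 and −0.07.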

How the data were processed

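Bulk RNA-seq libraries were prepared with NEBNext Ultra RNA reagents, per the labels; that kit does not mark strand. The submitters' processing notes name FastQC 0.11.8, HISAT2 2.1.0, featureCounts 1.6.2 and mm10. The annotation, strand setting and rule for multi-mapping reads were not given in the sources used here. Each deposited file gives, per gene symbol, the authors' TPM and an expected count. Of all count entries, zeros included, 66.5% were whole within 1e-06. A count that was not whole occurred in some library for 30 of the 31 members, so reads may have been shared between genes.

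Expected counts were rounded and tested with edgeR 4.0.16 (R 4.3.3; quasi-likelihood, TMM, no covariate) over all genes averaging 1 TPM or more, with Benjamini-Hochberg adjustment over all 19141. Each standard error was the absolute log2 fold change over the root of F. Levels by library are TPM. An exact permutation test of 3 against 3 libraries cannot give p below 0.1, so none was used. Alternatives used DESeq2 1.42.0, limma 3.58.1, other pseudocounts, filters and scaling, the replicate block, and omitted libraries. Members and lists were chosen with earlier results of these data known. All members were named; from the partner, protease and other guidance lists, genes that passed or else the 4 with the smallest p. Promoters came from RefSeq and exon overlaps from GENCODE M21, both on GRCm38.

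The test was first tested on simulated data with known changes. In these, 50 genes each were changed by 1.25-, 1.5-, 2- and 3-fold, all drawn from genes above 2 CPM. The test recovered 21 of 50 genes changed by 1.25-fold (42%) and 44 of 50 changed by 1.5-fold (88%). More genes were changed there than the 56 called in the data, which loosens the adjusted threshold, so recovery in the data may be lower. A gene that was not called may thus still have changed by a small fold. Replicate libraries of a group differed beyond counting noise (mean chi-square per gene 4.36 to 10.0), so all 6 were kept.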

Additional observations from a re-analysis of the deposited data

How the results depend on the processing

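Of 597 member estimates under the 20 alternatives, 573 kept their direction. The number of all genes that changed was 56, and it was 611 with DESeq2, 835 with no filter, 114 with a mean TPM of at least 5, 133 with robust settings, 203 with the replicate block, 13 without siNC-3 and siCLAP-2 together, 0 in limma on log2 TPM with each of 3 pseudocounts (3017 to 3040 at an unadjusted p under 0.05), and 0 to 340 with single libraries left out. Members that changed numbered 1, against 4 with DESeq2 (Plxnc1, Plxnd1, Sema4c and Sema4d) and 6 with no filter (Plxnc1, Plxna3, Plxnb3, Sema4c, Sema4d and Sema4g). They numbered 0 in limma on log2 TPM (9 unadjusted), 0 without siNC-3 and siCLAP-2 (8 unadjusted), and 0 to 4 with single libraries left out, at 4 without siCLAP-3. Over all genes, calls were 56 of 19141 in the main fit and 611 of the 13942 with an adjusted p in DESeq2. With no filter they were 835 of 30347, and without siCLAP-3 340 of 19141. Signalling partners that changed numbered 4 with DESeq2, 4 with no filter, 1 with the replicate block and 0 to 2 with single libraries left out. Processing proteases that changed numbered 1 with no filter. Other guidance genes that changed numbered 2 with DESeq2, 2 with no filter, 1 with the replicate block and 0 to 1 with single libraries left out. The cause of these shifts was not tested.

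The replicate numbers are not stated to pair libraries. Same-numbered libraries had correlations of their deviations of 0.125, 0.0264 and −0.0649, so they were not treated as pairs, and under the block Plxnc1 stood at −0.30 (adjusted p = 0.0261), with 1 member changed.

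The 24 estimates that turned sign were all near 0. For Plxna4 they were −2.7e-05 in voom, −0.0172, −0.0174 and −0.0169 in limma on log2 TPM + 0.5, 0.1 and 1, −0.0052 at a mean TPM of at least 5, −0.0015 with upper-quartile factors and −0.0030 with the block, and −0.068 to 0.087 with single libraries left out. Without siNC-3 and siCLAP-2, Sema3g was 0.0296 and Sema5a 0.0740. With single libraries left out, estimates ran from −0.149 to 0.0454 for Plxna2, −0.0844 to −0.00069 for Sema3g, −0.0599 to 0.0391 for Sema4b, −0.148 to 0.0530 for Sema5a, −0.105 to 0.0141 for Sema6b, −0.135 to 0.0429 for Sema6c, −0.0870 to 0.0137 for Sema6d and −0.0224 to 0.166 for Sema7a.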

Other observations

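The other axon guidance families (45 genes: ephrins and Eph receptors, netrins and their receptors, Slits and Robos, and repulsive guidance molecules) had a median log2 fold change of 0.02 over 40 tested genes, against −0.07 for the semaphorin, plexin and neuropilin genes. In edgeR 0 of the 40 passed and 8 had an unadjusted p under 0.05, a share close to the 17.0% of all genes. DESeq2 called 2 (4.38% of all genes with an adjusted p) and limma voom 0. The difference between the families was not tested.

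Slit1, a ligand of Robo receptors, was at 100, 87.2 and 96.9 TPM in siNC-1 to siNC-3 and 80.5, 71.4 and 84.6 TPM in siCLAP-1 to siCLAP-3 (log2 fold change −0.25 ± 0.07, adjusted p = 0.106 in edgeR and 0.0120 in DESeq2). Ntn1, encoding netrin 1, was at 2.68, 1.75 and 3.73 TPM against 1.66, 1.52 and 1.52 TPM (−0.73 ± 0.22, adjusted p = 0.148 in edgeR and 0.0292 in DESeq2). Its siNC values ran in the same order over libraries as the leptomeningeal sum (24.6, 11.2 and 34.8 TPM), and the part of those cells was not tested. Rgmb, a repulsive guidance molecule and the most abundant gene of these families, stood at −0.13 ± 0.04 (264 against 238 TPM), and Draxin, a netrin-binding repellent, at 0.33 ± 0.12; neither passed in edgeR or DESeq2.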
